A study of Homo sapiens with 24 samples.

Results

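The 7 genes described here are CNN3, NMUR2, LGALS1, BBX, SLC1A3, ADPRM and TRIM31, of 17448 genes tested in SW1222 cells, an established human colorectal cancer line. They were chosen by their measured levels in 2 DPPA3 knockout clones, which both stood on the same side of the control with a scrambled guide RNA: higher for TRIM31 and lower for the other 6. The knockout values of the 7 genes are therefore a description of the choice, and their tests below are of differences between other groups. Tests in the clones are given only for other genes. The 6 knockout arrays still enter the variance that the tests share, and of the members' calls only that of BBX with induction in 3D changed when they were left out. The 7 genes had 9 of the 20276 probe sets of the array table, of which 3 were for TRIM31.

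DPPA3 is a small protein of oocytes and early germ cells that binds UHRF1, a factor that keeps DNA methylation through replication, and the study's title links it to HIF1A and a slow cell cycle. The 7 genes are not one pathway. LGALS1 encodes galectin-1, a secreted lectin that binds galactose-containing sugars on cell surfaces and matrix. CNN3 is the acidic calponin, which binds actin filaments. NMUR2 is a G protein-coupled receptor for the peptides neuromedin U and neuromedin S. SLC1A3 is the plasma membrane transporter for glutamate and aspartate known as EAAT1 or GLAST. ADPRM is a manganese-dependent enzyme that hydrolyses ADP-ribose and related diphosphates. TRIM31 is an E3 ubiquitin ligase found in intestinal epithelium, where it acts in innate immune signalling. BBX is a DNA-binding protein with an HMG box.

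The 24 arrays fell into 9 groups, all kept at 21% oxygen. In the induction experiment, a line with DPPA3 inducible by doxycycline (DPPA3-OE) and its control line (control-OE) were kept in Matrigel as megacolonies (3D), with 5 µg/ml doxycycline over the last 5 days, on 3 arrays per line. The same lines were also grown in 2D, where both received 5 µg/ml doxycycline for 4 hours, again on 3 arrays per line. In the shRNA experiment, the 3 arrays of DPPA3 shRNA cells and the 3 of control shRNA cells came from untreated 3D cultures. In the knockout experiment, untreated 3D cultures gave 2 arrays for a scrambled gRNA and 2 for either CRISPR DPPA3 clone, number 66 (C66) and number 75 (C75). Each clone is 1 line, and both are set against the same 2 scrambled arrays. Both lines of the induction experiment received doxycycline, so a DPPA3 response and a standing difference between the lines cannot be told apart.

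Values are log2 expression after RMA, so a difference of 1 is a doubling. The array medians lay between 4.01 and 4.12, and precision was limited by how few arrays a group had. DPPA3 itself read 3.77 to 4.74 with induction in 3D and 4.18 to 6.16 in 2D, against 2.55 to 3.47 in the 18 arrays without the transgene. Its loss was not measurable in the knockdown (log2 difference -0.04) or in C66 (-0.16) and C75 (0.19), where the signal was already dim. All 11 colonic epithelial markers, such as CDX2, VIL1 and CDH17, were above the median of all genes in every group. Of 14 measured markers of fibroblasts, leukocytes and endothelium, COL1A1 alone was so, and the leukocyte and endothelial markers had group means up to 3.87 and 2.94. Nothing in the labels ties replicates to separate cultures, and the p-values then measure no more than the scatter of these arrays, which may be technical.

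The upstream sequences show how different the starts of these genes are, a feature the choice did not use. They bear on a study of DPPA3 because CpG dinucleotides are the sites of the methylation that UHRF1 helps to keep. No methylation was measured. The 250 bases before the outermost RefSeq start (GRCh38.p14) were matched for 6 of the 7 genes, all except LGALS1. The richest in CpG, the poorest and that of the receptor gene are shown 5′ to 3′ with each CpG in capitals. They are CNN3 (chr1:94927111-94927360, minus strand), TRIM31 (chr6:30113091-30113340, minus strand) and NMUR2 (chr5:152405280-152405529, minus strand).
CNN3: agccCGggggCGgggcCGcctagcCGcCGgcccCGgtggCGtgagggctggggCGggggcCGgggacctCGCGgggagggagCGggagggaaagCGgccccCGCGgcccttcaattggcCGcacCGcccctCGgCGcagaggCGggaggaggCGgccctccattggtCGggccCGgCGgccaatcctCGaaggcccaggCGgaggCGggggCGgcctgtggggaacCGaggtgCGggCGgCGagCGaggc
TRIM31: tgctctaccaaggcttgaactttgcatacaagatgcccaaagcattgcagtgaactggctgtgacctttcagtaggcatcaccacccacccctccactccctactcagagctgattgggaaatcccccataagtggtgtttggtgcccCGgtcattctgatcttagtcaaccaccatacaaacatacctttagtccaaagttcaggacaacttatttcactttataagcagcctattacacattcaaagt
NMUR2: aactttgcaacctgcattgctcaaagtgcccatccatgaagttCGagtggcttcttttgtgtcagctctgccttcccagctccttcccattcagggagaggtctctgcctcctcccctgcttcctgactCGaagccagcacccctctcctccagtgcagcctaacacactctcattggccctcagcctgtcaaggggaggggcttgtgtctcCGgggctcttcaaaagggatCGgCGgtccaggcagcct

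The CNN3 window held 33 CpG, and 89.0% of the 13863 windows of tested genes held fewer. ADPRM followed with 26 CpG, above 73.3% of windows. The others lay below the median of 18: BBX held 9 CpG, NMUR2 held 5, and SLC1A3 and TRIM31 held 1 each, a count above 2.95% of windows. SLC1A3 has other listed starts with 5 and 7 CpG, and CNN3 has one with 7. The core of the HIF binding site, written ACGTG or GCGTG and sought on both strands (CACGTG counts on each), was found in 3 of the 6 windows, once in CNN3 and BBX and at 2 places in ADPRM. Some form of it was in 51.0% of all windows, so its presence in these 3 is near what any window gives. The 6 genes therefore had no CpG class in common.

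**Figure D1:**
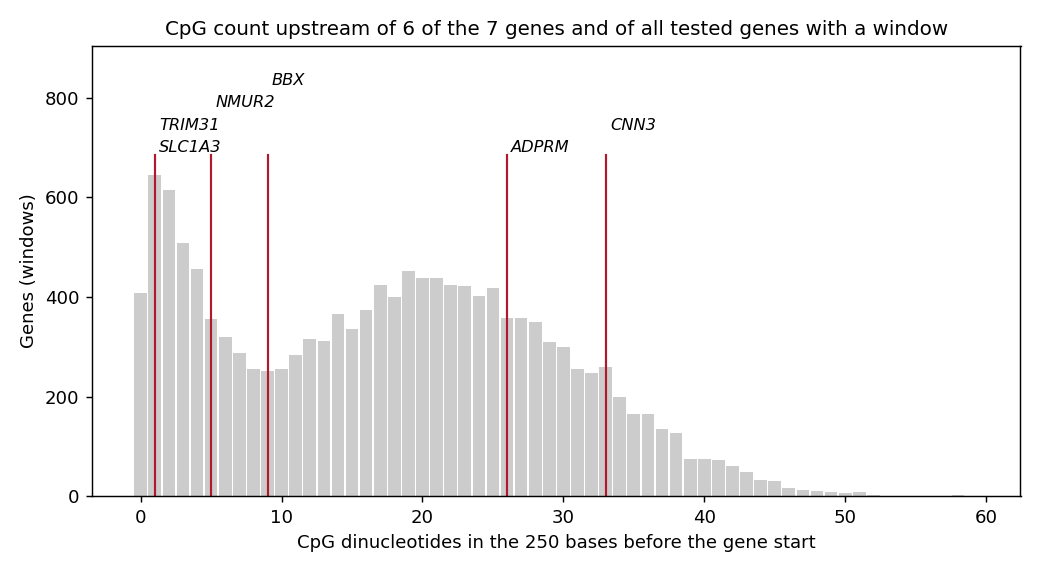
Bars count the windows of 250 bases before the start of tested genes (y axis, number of genes) by the CpG dinucleotides they hold (x axis, number). Red lines mark 6 of the 7 genes: SLC1A3 and TRIM31 at 1, NMUR2 at 5 and BBX at 9 lie on the poor side, ADPRM at 26 and CNN3 at 33 on the rich side.

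In the knockout experiment, which served for the choice, the falls averaged over the clones ran from 1.48-fold for ADPRM to 2.25-fold for NMUR2, and TRIM31 was 1.73-fold higher. Among all genes, 1.43% passed in C66 and 0.619% in C75 (limma, Benjamini-Hochberg adjusted p under 0.05), a background given here for scale only. The shares were 0.871% higher and 0.562% lower in C66, and 0.138% and 0.481% in C75. Arrays that did not overlap the 2 controls were common among all genes, 20.4% higher and 22.5% lower in C66 and 19.8% and 20.7% in C75, so lack of overlap alone says little here. CNN3 read 7.04 and 7.18 with the scrambled guide, 6.19 and 5.97 in C66, and 6.35 and 6.42 in C75. LGALS1 read 6.93 and 6.92 in the control, 6.12 and 6.04 in C66, and 6.27 and 5.87 in C75. BBX read 6.25 in both control arrays, 5.33 and 5.51 in C66, and 5.61 and 5.35 in C75. In each of these 3 genes, all 4 clone arrays lay below both control arrays.

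NMUR2 read 4.73 and 4.58 in the control, 3.82 and 3.64 in C66, and 3.06 and 3.41 in C75. SLC1A3 read 3.90 and 3.53 in the control, 2.92 and 3.06 in C66, and 2.70 and 3.01 in C75. ADPRM read 3.07 and 3.36 in the control, 2.65 in both arrays of C66, and 2.61 and 2.67 in C75. These 3 genes were dim: SLC1A3 and ADPRM stayed below the array median on all 24 arrays, NMUR2 on 14 of them, and a dim signal can understate a change in RNA. TRIM31 read 5.71 and 5.77 in the control, 6.32 and 6.69 in C66, and 6.43 and 6.68 in C75, so every clone array was above both controls. The sizes in the clones were alike for LGALS1 (-0.85 in C66 and -0.86 in C75), ADPRM (-0.56 and -0.58), TRIM31 (0.76 and 0.82) and BBX (-0.84 and -0.77). The means of the clones lay furthest apart for NMUR2, lower in C75 by 0.49, and for CNN3, lower in C66 by 0.30. These differences were not tested.

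**Figure D2:**
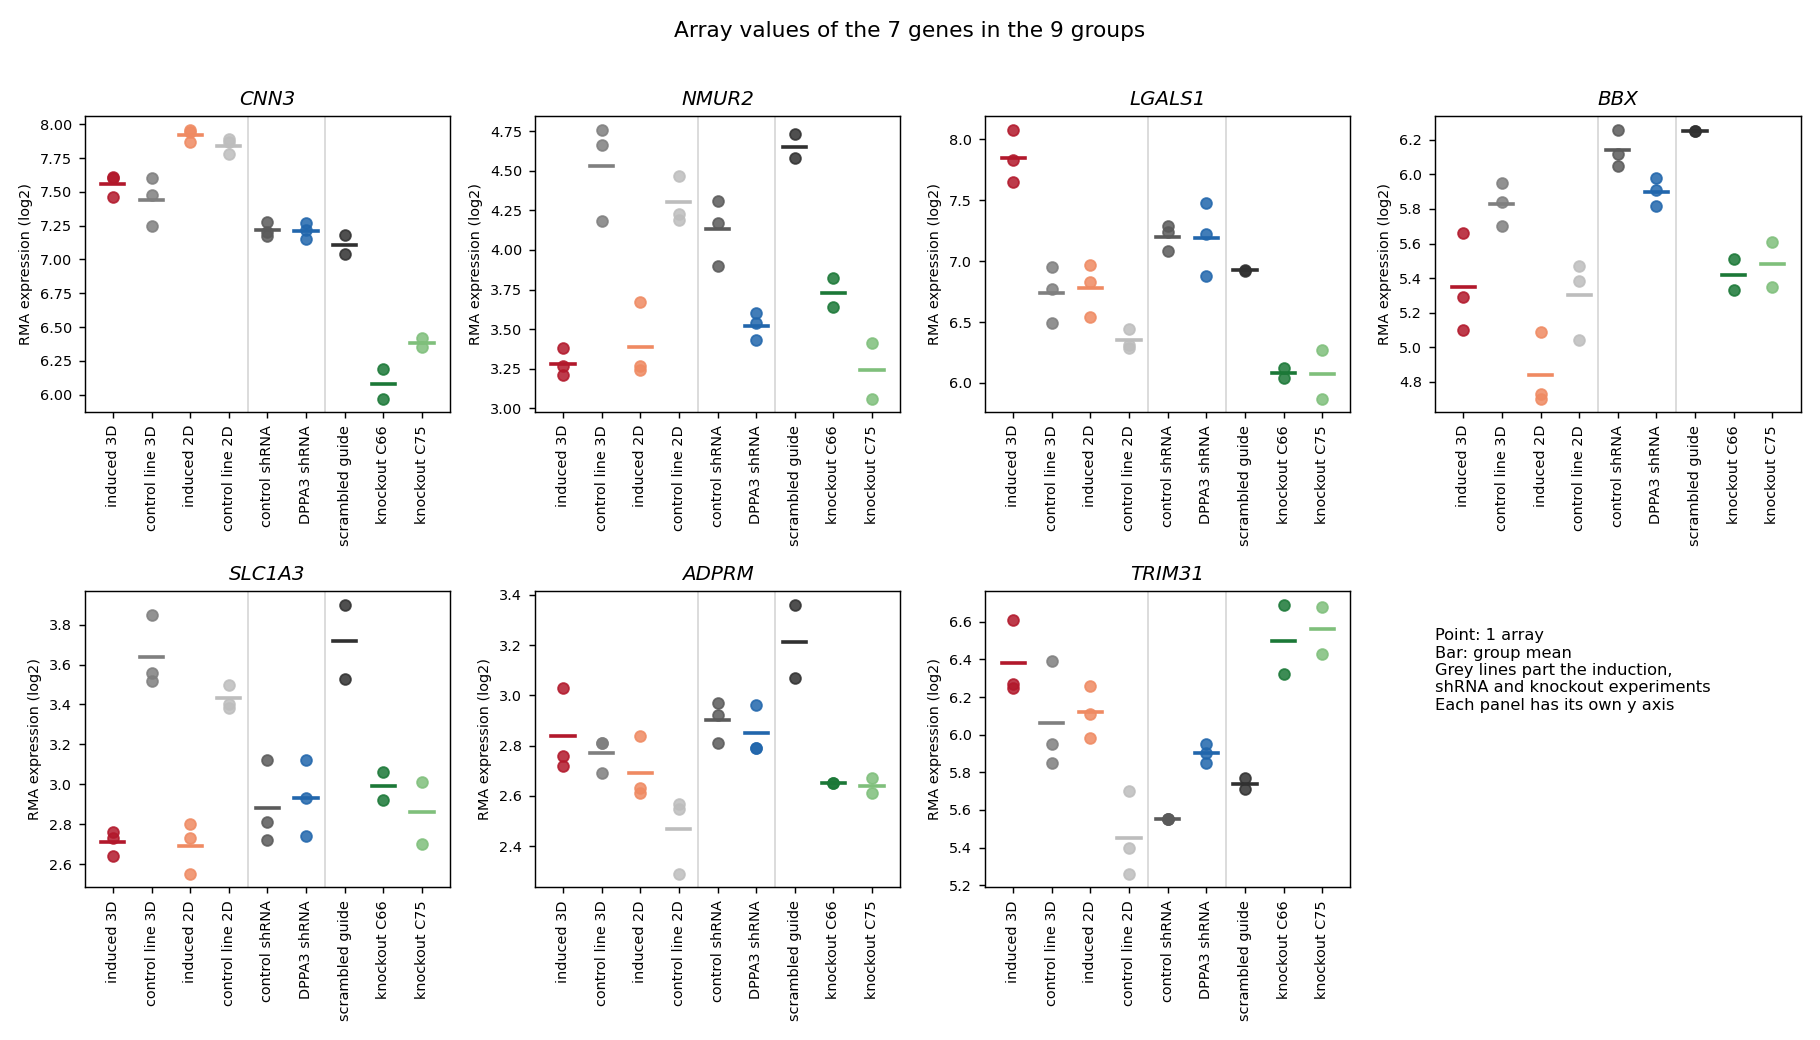
Each panel gives 1 gene, with the RMA value of every array (log2, own y axis) in the 9 groups, points for arrays and bars for group means. CNN3 and LGALS1 have their lowest means in the clones, and NMUR2 has its lowest in C75. NMUR2, BBX, SLC1A3 and ADPRM have their highest means in the scrambled control, and LGALS1 has its highest, 7.85, in the induced line in 3D.

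As another reference, the clone arrays were set beside the control shRNA arrays, which are untreated 3D cultures of another experiment. Lines and experiments cannot be told apart in this, and no test was made. For 5 genes the 4 clone arrays lay below all 3 control shRNA arrays: CNN3, NMUR2, LGALS1, BBX and ADPRM. Of all genes, 8.23% did so. For TRIM31 they lay above, as for 6.91% of all genes. The clone arrays served for the choice, so nothing is read from these counts. For SLC1A3 the arrays overlapped. Its control shRNA arrays read 2.81, 2.72 and 3.12, and its scrambled control stood 0.83 above the control shRNA mean. For SLC1A3 the clones thus differed by 0.11 (C66) and -0.02 (C75) from that other control. NMUR2 was intermediate, with the scrambled control 0.53 above the control shRNA mean and the clones 0.40 (C66) and 0.89 (C75) below it. ADPRM was 0.31 higher in the scrambled control than in the control shRNA cells, and the clones were -0.25 and -0.26 from the latter. For CNN3 and BBX the arrays of the 2 controls overlapped, and the clones were -1.14 and -0.83 (CNN3) and -0.73 and -0.66 (BBX) from the control shRNA mean. For LGALS1 the scrambled control was the lower of the 2 controls by 0.27, and the clones were -1.12 and -1.13 from the control shRNA mean.

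**Figure D3:**
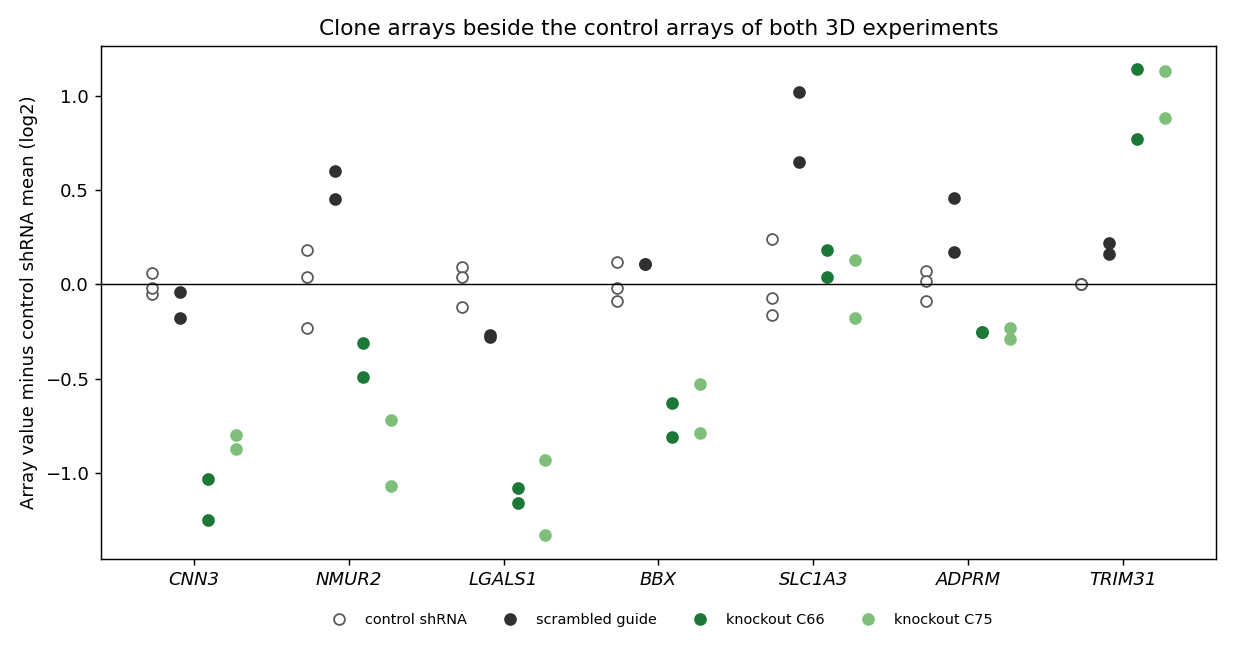
Points are single arrays of 4 untreated 3D groups, given as their value minus the control shRNA mean of the same gene (log2, y axis), for the 7 genes (x axis). Clone points of SLC1A3 lie among the control shRNA points, with the scrambled control above them. Those of CNN3, NMUR2, LGALS1, BBX, ADPRM and TRIM31 lie apart from both controls. The clone and scrambled arrays served for the choice.

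The DPPA3 shRNA asks whether the same genes move when DPPA3 is targeted by another means. None of the 7 passed (limma, adjusted over all genes), where 0.0860% of genes did, 15 in all (0.0344% higher and 0.0516% lower). At an unadjusted p under 0.05 there were 2 of the 7, NMUR2 and TRIM31, against 5.26% of all genes. NMUR2 read 3.54, 3.43 and 3.60 with the DPPA3 shRNA and 4.31, 4.17 and 3.90 with the control shRNA. The groups did not overlap, and the log2 difference was -0.61 (SE 0.14, 95% interval -0.90 to -0.31, limma adjusted p = 0.161). TRIM31 read 5.95, 5.85 and 5.90 with the DPPA3 shRNA and 5.55 in all 3 control arrays, a difference of 0.35 (SE 0.14, adjusted p = 0.782 by limma). BBX did not overlap either, at 5.98, 5.91 and 5.82 against 6.26, 6.12 and 6.05, with a difference of -0.24 (95% interval -0.52 to 0.04). By lack of overlap 2 of the 7 were lower and 1 higher, where 5.62% and 5.16% of all genes were.

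For the other 4 genes the knockdown arrays overlapped their controls. CNN3 differed by 0.00, with a 95% interval of -0.20 to 0.20. LGALS1 differed by -0.01 (-0.31 to 0.30). SLC1A3 differed by 0.05 (-0.22 to 0.31) and ADPRM by -0.05 (-0.28 to 0.17). Whether the shRNA lowered DPPA3 RNA could not be read from these arrays.

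With DPPA3 induced in 3D, 4 of the 7 genes passed: in the induced line NMUR2, SLC1A3 and BBX were lower and LGALS1 was higher. Among all genes 5.70% passed, 2.77% lower and 2.93% higher. The same 4 were the members whose arrays did not overlap between the lines, as for 9.57% (lower) and 8.71% (higher) of all genes. NMUR2 read 3.21, 3.27 and 3.38 in the induced line against 4.76, 4.66 and 4.18 in its control line. The receptor's signal was 2.37-fold lower (log2 difference -1.25, SE 0.14, limma adjusted p = 2.36e-06), with no overlap. SLC1A3 read 2.73, 2.64 and 2.76 against 3.52, 3.56 and 3.85, also without overlap. The transporter was 1.91-fold lower (-0.93, SE 0.13, limma adjusted p = 3.06e-05). LGALS1 read 8.08, 7.65 and 7.83 against 6.77, 6.95 and 6.49, the highest galectin-1 values of any group. It rose by 1.12 log2, or 2.17-fold (SE 0.15, limma adjusted p = 1.59e-05), opposite to its direction in the clones. NMUR2, SLC1A3 and BBX had the same direction here, where DPPA3 was induced, as in the knockout clones. The cause of that was not tested.

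BBX read 5.10, 5.66 and 5.29 in the induced line against 5.95, 5.70 and 5.84, close to touching. Its difference was -0.48 (SE 0.14, limma adjusted p = 0.0359). The call was lost without any of 4 single arrays: induced replicate 1 (adjusted p = 0.241), induced replicate 3 (0.129), control replicate 1 (0.142) or control replicate 3 (0.0876). It was also lost when only these 6 arrays gave the variance (adjusted p = 0.137), and when the knockout arrays were left out of the model (adjusted p = 0.0542). CNN3 (0.11, 95% interval -0.09 to 0.31), ADPRM (0.07, -0.16 to 0.29) and TRIM31 (0.32, 0.03 to 0.60, limma adjusted p = 0.237) did not pass. Without control replicate 1, TRIM31 passed (0.48, adjusted p = 0.0485).

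After 4 hours in 2D, NMUR2 and SLC1A3 were again lower in the induced line and TRIM31 was higher, 3 of the 7 genes against 3.13% of all genes (1.26% lower and 1.87% higher). NMUR2 read 3.67, 3.24 and 3.27 against 4.23, 4.19 and 4.47, a difference of -0.90 (SE 0.14, limma adjusted p = 3.13e-04). SLC1A3 read 2.55, 2.80 and 2.73 against 3.38, 3.50 and 3.40, a difference of -0.74 (SE 0.13, limma adjusted p = 8.31e-04). Neither gene overlapped between the lines. TRIM31 read 6.11, 5.98 and 6.26 against 5.70, 5.26 and 5.40, a rise of 0.67 log2, or 1.59-fold (SE 0.14, limma adjusted p = 0.00456). That is also its direction in the knockout clones. The tested probe set of TRIM31 is the brightest of 3 that followed each other at r = 0.980 or more over the 24 arrays. Their differences in 2D ran from 0.60 to 0.67, and in the clones from 0.74 to 0.82.

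LGALS1 read 6.83, 6.97 and 6.54 in the induced line in 2D against 6.44, 6.31 and 6.29, a difference of 0.43 (95% interval 0.13 to 0.74, limma adjusted p = 0.132) that did not pass although the arrays did not overlap. BBX read 5.09, 4.70 and 4.73 against 5.47, 5.04 and 5.38, a difference of -0.46 (limma adjusted p = 0.0685). BBX passed without control replicate 2 (adjusted p = 0.0251), without induced replicate 1 (0.0268) and among brighter genes only (0.0498). CNN3 differed by 0.08 (-0.12 to 0.28) and ADPRM by 0.22 (0.00 to 0.45, limma adjusted p = 0.384). Arrays of the lines did not overlap for 2 lower genes (NMUR2, SLC1A3) and 3 higher ones (LGALS1, ADPRM, TRIM31), beside 7.09% and 9.61% of all genes.

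The induction effects in 3D and 2D were then compared directly, and none of the 7 differences passed by limma, where 0.241% of all genes did (0.103% with the larger value in 3D and 0.138% in 2D). At an unadjusted p under 0.05 there was 1, LGALS1, against 8.98% of all genes. Its effect was 0.69 larger in 3D (95% interval 0.26 to 1.12, limma adjusted p = 0.228). The interval for NMUR2 was -0.76 to 0.08 and for SLC1A3 -0.57 to 0.18, both including 0. Time under the drug and culture changed together and cannot be told apart here.

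**Figure D4:**
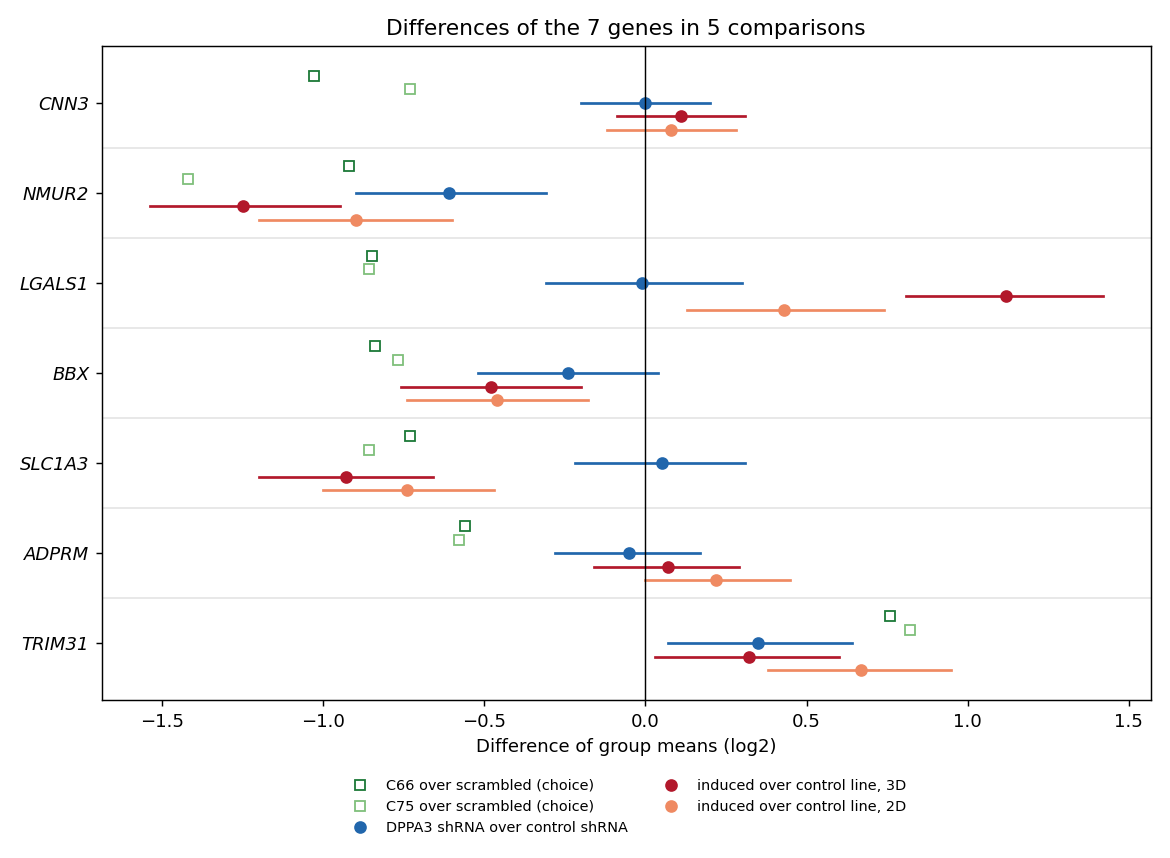
Differences of group means (log2, x axis) for the 7 genes (rows), with filled circles and 95% intervals for the shRNA and induction comparisons and open squares for the knockout differences that served for the choice. In both clones and both inductions, NMUR2, SLC1A3 and BBX lie left of 0 and TRIM31 lies right of it. LGALS1 lies on opposite sides, and the intervals of CNN3 and ADPRM reach 0 in each of the 3 tested comparisons shown.

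Some of these genes also differed between 3D and 2D cultures of the same line, which differ in the time under doxycycline as well. In the control line 3 of the 7 passed between 3D and 2D, where 7.80% of all genes did (4.92% higher and 2.88% lower in 3D). In the induced line 3 passed as well, against 14.9% (7.55% higher and 7.35% lower). By lack of overlap 5 members were higher and 1 lower in the control line, beside 11.4% and 11.7% of all genes, and 2 higher and 1 lower in the induced line, beside 13.0% and 15.4%. CNN3 was lower in 3D in both lines. Its control line read 7.60, 7.48 and 7.25 in 3D and 7.89, 7.87 and 7.78 in 2D (-0.40, SE 0.10, limma adjusted p = 0.0114), and the induced line differed by -0.37 (adjusted p = 0.0103). The call ended without control 3D replicate 3 in the first case (-0.30, adjusted p = 0.0703) and without induced 3D replicate 3 in the second (-0.32, adjusted p = 0.0596). With the arrays of the comparison alone, the first was lost too (adjusted p = 0.101).

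BBX was higher in 3D, by 0.53 in the control line (SE 0.14, limma adjusted p = 0.0161) and by 0.51 in the induced line (adjusted p = 0.0111). The first was lost without control 3D replicate 1 (0.47, adjusted p = 0.0732) or control 2D replicate 2 (0.40, 0.0907). The second was lost without induced 3D replicate 2 (0.35, adjusted p = 0.0953), induced 2D replicate 2 (0.44, 0.0608) or induced 2D replicate 3 (0.45, 0.0574). With the arrays of each comparison alone, the adjusted p of BBX was 0.0540 and 0.0514. TRIM31 was higher in 3D by 0.61 in the control line (SE 0.14, limma adjusted p = 0.00689), a call lost without control 3D replicate 1 (0.45, adjusted p = 0.0624) and with these arrays alone (adjusted p = 0.0578). LGALS1 was higher in 3D by 1.08 in the induced line (SE 0.15, limma adjusted p = 1.35e-05), and by 0.39 in the control line, which did not pass (adjusted p = 0.107).

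Ordered by group mean, the levels of each gene gave a different picture over the 9 groups. CNN3 was highest in the induced and control lines in 2D (7.92 ± 0.05 and 7.84 ± 0.06, SD, n = 3) and then lower in 3D (7.56 ± 0.09 and 7.44 ± 0.18). The control shRNA (7.22 ± 0.05), DPPA3 shRNA (7.21 ± 0.06) and scrambled groups (7.11 ± 0.10) followed and overlapped each other. C75 (6.38 ± 0.05, n = 2) and C66 (6.08 ± 0.15) came last, each clear of its neighbour. LGALS1 ran from the induced line in 3D (7.85 ± 0.21) to C66 (6.08 ± 0.06) and C75 (6.07 ± 0.28). Its control shRNA (7.20 ± 0.11), DPPA3 shRNA (7.19 ± 0.30), scrambled (6.93 ± 0.0090), induced 2D (6.78 ± 0.22) and control line 3D groups (6.74 ± 0.23) formed a chain in which each overlapped the next. The control line in 2D (6.35 ± 0.08) stood between that chain and the clones.

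For NMUR2 the scrambled group (4.65 ± 0.10), the control lines in 3D (4.53 ± 0.31) and 2D (4.30 ± 0.15) and the control shRNA (4.13 ± 0.21) overlapped in that order. Below them, without overlap, came C66 (3.73 ± 0.12), the DPPA3 shRNA (3.52 ± 0.09), the induced line in 2D (3.39 ± 0.24) and 3D (3.28 ± 0.09) and C75 (3.24 ± 0.25).

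SLC1A3 had 3 high groups, the scrambled control (3.72 ± 0.27) and the control lines in 3D (3.64 ± 0.18) and 2D (3.43 ± 0.06). The other 6 groups lay between 2.69 and 2.99 and overlapped from each to the next, the control shRNA (2.88 ± 0.21) among them. BBX was highest in the scrambled (6.25, SD 0.000021) and control shRNA groups (6.14 ± 0.10), then in the DPPA3 shRNA (5.90 ± 0.08) and the control line in 3D (5.83 ± 0.12). C75 (5.48 ± 0.18), C66 (5.42 ± 0.13), the induced line in 3D (5.35 ± 0.29) and the control line in 2D (5.30 ± 0.22) overlapped, and the induced line in 2D was lowest (4.84 ± 0.22).

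ADPRM had the narrowest span, 0.74 between group means. The scrambled control (3.21 ± 0.21) stood above all others, and no array of another group reached its lower array of 3.07. The clones, at 2.65 ± 0.0066 and 2.64 ± 0.04, were not lowest, since the control line in 2D read 2.57, 2.29 and 2.55. TRIM31 was highest in C75 (6.56 ± 0.18) and C66 (6.50 ± 0.26), which overlapped the induced line in 3D (6.38 ± 0.20), as that did the induced line in 2D (6.12 ± 0.14). The control line in 3D (6.06 ± 0.29) and the DPPA3 shRNA (5.90 ± 0.05) came next. The scrambled group (5.74 ± 0.05), the control shRNA (5.55 ± 0.0044) and the control line in 2D (5.45 ± 0.22) were lowest.

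The genes whose 9 group means followed each member most closely were found by Pearson's r, given as a description over 9 points that share lines and experiments. The scrambled, C66 and C75 groups among them served for the choice. Likeness between members lowered in both clones is therefore in part built in. NMUR2 and SLC1A3 were each other's closest match at r = 0.908, from among 3362 and 6074 genes with enough range. NMUR2 was next closest to SNORD13 (r = 0.829) and SLC1A3 to DPCD (r = 0.856). CNN3 was closest to C12orf75 (r = 0.977) and to ENAH (r = 0.965), which encodes an actin regulator, both with their lowest mean in C66 and their highest in the induced line in 2D. LGALS1 was closest to the transcription factor gene JUN (r = 0.941), lowest in C66 (3.67) and highest in the induced line in 3D (5.09), and to C12orf57 (r = 0.922). BBX was closest to SYBU and ENPP5 (r = 0.951 each), ADPRM to C19orf25 (r = 0.941) and AGMO (r = 0.927), and TRIM31 to S100A14 (r = 0.942) and GABARAPL1 (r = 0.929). Among the members themselves, BBX and ADPRM followed each other at r = 0.73, and LGALS1 and SLC1A3 did not (r = -0.22).

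Relatives of each gene were read from fixed lists, to see whether families moved with their members. For their counts at an unadjusted p under 0.05, the share of all genes was 16.0% with induction in 3D, 13.6% in 2D, 5.26% in the knockdown, 22.1% and 26.0% between 3D and 2D in the control and induced lines, 9.55% in C66 and 8.12% in C75. Of 11 galectin relatives measured, LGALS8, another secreted lectin, rose with induction in 3D (0.51, limma adjusted p = 0.00176) and in 2D (0.55, adjusted p = 0.00130). It differed by 0.00 in both clones. LGALS9 rose in C66 (0.91, limma adjusted p = 0.00426) and had 0.21 in C75 (adjusted p = 0.902). The galectins' median was 0.20 with induction in 3D and 0.06 in 2D, beside -0.01 and 0.00 for all genes. It was 0.04 in C66 and 0.09 in C75. Between 3D and 2D, 2 of the 11 passed higher in 3D in the control line and 3 in the induced line. Of all genes, 4.92% and 7.55% did so. Of 14 actin filament genes, CALD1, a caldesmon that binds actin, fell in C66 (-0.75, limma adjusted p = 0.00170) and had -0.28 in C75 (adjusted p = 0.599). The tropomyosin TPM4 fell with induction in 3D (-0.46, adjusted p = 0.0107) and 2D (-0.55, adjusted p = 0.00367). The medians of the 14 genes were -0.08 in C66 and 0.00 in C75. In C66 1 of the 14 passed, lower, where 0.562% of all genes did, with 4 at an unadjusted p under 0.05. In C75 0 passed by limma, with 3 at an unadjusted p under 0.05. Between 3D and 2D, 1 of the 14 passed lower in the control line, where 7.80% of all genes passed. In the induced line 1 passed higher and 1 lower, where 14.9% of all genes passed.

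Of 9 genes around NMUR2, only its ligand gene NMU passed in any comparison. It did so with induction in 2D and between 3D and 2D in the induced line, where 3.13% and 14.9% of all genes passed. NMU rose with induction in 2D (0.69, limma adjusted p = 0.0139), had -0.09 in 3D, and was lower by 1.09 in the induced line in 3D than in 2D (adjusted p = 4.02e-05). Among 17 genes of glutamate and aspartate transport and use, the amino acid transporter SLC38A1 rose with induction in 3D (0.38, limma adjusted p = 0.0213). The cystine-glutamate exchanger SLC7A11 fell in 2D (-0.49, adjusted p = 0.0143). In the clones 0 of the 17 passed by limma, and 2 (C66) and 3 (C75) had an unadjusted p under 0.05. Between 3D and 2D, 1 of the 17 passed in the control line (SLC38A2, 0.63), where 7.80% of all genes did. In the induced line 4 were higher and 1 lower in 3D, where 14.9% of all genes passed, led by SLC38A2 (0.82) and the aminotransferase GOT2 (-0.65).

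Of 13 genes of ADP-ribose handling, NUDT5, a hydrolase that also cleaves ADP-ribose, fell in C75 (-1.28, SE 0.19, limma adjusted p = 4.85e-04) and had 0.01 in C66. It also fell with induction in 3D (-0.82, adjusted p = 0.00147) and 2D (-0.72, adjusted p = 0.00761), as did PARG, which cuts poly(ADP-ribose) (-0.97, adjusted p = 8.50e-04 and -0.85, adjusted p = 0.00475). PARP2 fell in 3D (-0.50, adjusted p = 0.00279). The median of the 13 genes was 0.02 with induction in 3D and -0.09 in 2D, beside -0.01 and 0.00 for all genes. Between 3D and 2D, 3 of the 13 passed lower and 1 higher in either line, where 7.80% (control line) and 14.9% (induced line) of all genes passed. The higher one was PARP3 (0.49 in the control line and 0.80 in the induced line). PARP1, lower in 3D, had the smallest p of the list in both lines. It differed by -0.58 in the control line (limma adjusted p = 0.00419) and -0.80 in the induced line (adjusted p = 6.07e-05). Of 16 HMG-box genes, TOX fell (-0.83, limma adjusted p = 3.86e-04) and LEF1, a factor of Wnt signalling, rose (0.78, adjusted p = 0.00422) in C66, with -0.36 and -0.10 in C75. LEF1 fell with induction in 3D (-0.57, adjusted p = 0.00403), with the chromatin protein HMGB2 (-0.49, adjusted p = 0.0183), and HMGB3 fell in 2D (-0.38, adjusted p = 0.0479). The median of the 16 genes was 0.04 with induction in 3D and -0.06 in 2D. HBP1 was higher in 3D than in 2D in both lines (1.02 in the control line, limma adjusted p = 2.33e-06, and adjusted p = 1.01e-06 in the induced line). The control line had 2 of the 16 passing higher in 3D and 1 lower, where 7.80% of all genes passed. The induced line had 1 higher and 1 lower, where 14.9% passed. The others were SOX2 (0.42) and HMGB3 (-0.38) in the control line and HMGB2 (-0.55) in the induced line. Of 14 TRIM-list genes, TRIM5 rose with induction in 2D (0.57, limma adjusted p = 0.0296), and 0 passed in the clones by limma, with 0 (C66) and 5 (C75) at an unadjusted p under 0.05. TRIM38 and TRIM5 passed higher in 3D than in 2D in the control line (0.64 and 0.50), and TRIM38 in the induced line (0.60). Across these 7 lists 0 relatives passed in the knockdown by limma, with 0 to 3 per list at an unadjusted p under 0.05.

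Genes next to the members on the chromosome were read as well, 2 on either side and 28 in all. In the clones 0 of the 28 passed by limma, where 1.43% (C66) and 0.619% (C75) of all genes did, and 2 and 4 had an unadjusted p under 0.05 (9.55% and 8.12% of all genes). With induction in 3D 0 passed by limma, with 6 at an unadjusted p under 0.05 (16.0% of all genes). In 2D 1 passed, NIPBL beside SLC1A3, a cohesin loader that rose by 0.54 (limma adjusted p = 0.00472) while SLC1A3 fell. Between 3D and 2D, PTBP2 beside CNN3 was higher in 3D in the control line (0.65) and the induced line (0.83), as was CBLB beside BBX (0.79 and 0.91). NIPBL was higher in 3D in the control line (0.43, limma adjusted p = 0.0175), and ALG14 beside CNN3 was lower in the induced line (-0.38, adjusted p = 0.0324). These were 3 of the 28 in either line, beside 7.80% and 14.9% of all genes.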

How the data were processed

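The deposited values are log2 expression per probe set, and the submitters' processing notes name Partek 6.6 and RMA, a method that corrects background, equalises the distributions of the arrays and can compress differences of dim genes. The array annotation's genome build was not given in the sources used here. Of 20276 probe sets, 18062 had 1 gene symbol, 1288 several and 926 none in the annotation given. Symbols were updated by gene ID through the RefSeq table (18036 matched). Each of 17448 genes was represented by its probe set with the highest mean. All 24 arrays entered 1 linear model with 9 group coefficients in limma 3.58.1 in R 4.3.3 (15 residual and 9.81 prior degrees of freedom, 2-sided), and a gene passed when its p, adjusted over the 17448 genes (Benjamini-Hochberg), was under 0.05. The method was tested on simulated data. The members, gene lists and comparisons were chosen with earlier results of these data known. Members were always named. Other names include the 2 genes with the highest r to each member. Those had a range of at least 0.5 times its own and no LOC or LINC symbol. Listed relatives that passed, at most 4 per list and comparison, and neighbours that passed are named too. Not every passing relative is named, and those named are not always the ones with the smallest p. Upstream windows came from RefSeq. Alternatives were the comparison's arrays alone, a trended and robust variance, equal array medians, no dim genes, the mean of probe sets, a replicate block and leaving out each array or, added later, the knockout experiment.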

Additional observations from a re-analysis of the deposited data

How the results depend on the processing

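With the variance taken from the arrays of the comparison alone, the genes passing became 468 for induction in 3D, 314 for induction in 2D, 562 for the control line in 3D over 2D, 7 for the difference of induction effects and 164 for C75. Leaving out 1 array gave 663 to 989 for induction in 3D, 391 to 489 in 2D, 8 to 12 for the knockdown, 875 to 1221 for the control line, 1964 to 2362 for the induced line, 11 to 70 for the difference of effects, 89 to 120 for C66 and 38 to 67 for C75. The cause was not tested. The 70 came without induced line 3D replicate 2. The calls of NMUR2 and SLC1A3 in both inductions, of LGALS1 in 3D and in the induced line over culture, and of TRIM31 in 2D held in every alternative that tested the gene, where dim genes left out took SLC1A3 and ADPRM with them. In the clones, no member changed sign, but the members were chosen by that sign, so nothing is read from it. Signs that turned belonged to values near 0 that did not pass. With equal array medians the induced line in 3D over 2D gave -0.02 for SLC1A3. With 1 array left out, ADPRM with induction in 3D ran from -0.03 to 0.13, and the difference of effects from -0.18 to 0.10 for BBX and from -0.06 to 0.11 for CNN3. The induced line in 3D over 2D ran from -0.19 to 0.03 for NMUR2 and from -0.05 to 0.07 for SLC1A3, and the knockdown from -0.03 to 0.03 for CNN3, -0.15 to 0.15 for LGALS1 and -0.05 to 0.17 for SLC1A3. The replicate numbers did not pair the arrays (r of same-numbered deviations from -0.21 to 0.17). With the number as a replicate block, 891, 496, 16, 1235, 2494 and 31 genes passed in the 6 comparisons of induction, knockdown, culture and difference, and 246 and 100 in the clones. Under it BBX with induction in 3D missed the threshold (adjusted p = 0.0647) and no other member's call changed. A model without the knockout experiment's 6 arrays was chosen after seeing the data. It gave 27 genes for the difference of effects, kept the counts of the other 5 tested comparisons within 1.5 times, and changed no member's call except that of BBX with induction in 3D (adjusted p = 0.0542). The median standard error of a difference was 0.12 log2 with 3 arrays a group and 0.15 in the knockout experiment.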
